A study of Mus musculus with 12 samples.

Results

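The response of mouse liver to a methionine- and choline-deficient (MCD) diet was compared between livers with and without cre acting on Lpcat3. The quantity described is the interaction, the log2 change from control to MCD diet in cre livers minus the same change in flox livers. It uses 12 of the 12 libraries of the series, 3 in each of 4 groups. All mice were C57BL/6 and labelled male, with a stated age of 6 to 8 weeks. They carried loxP-flanked Lpcat3 alleles (LPCAT3flox/flox, called flox, or LPCAT3flox/flox-cre, called cre), and were fasted for 12 h before the liver was taken. Each genotype received a control diet or the MCD diet, the latter for 8 weeks, so the stated age cannot be that of the MCD mice at sampling. The promoter that drives cre and the composition of the control diet are not given in the sources used here. The libraries are separate samples by their labels, which do not say that animals were unrelated or prepared on separate days, so p-values speak only to the spread between such samples.

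Lpcat3 encodes lysophosphatidylcholine acyltransferase 3, an endoplasmic reticulum enzyme that places polyunsaturated acyl chains into phospholipids. The MCD diet withholds the methyl donor methionine and the head group precursor choline, which slows the making of phosphatidylcholine and the export of lipoproteins and brings on steatosis and inflammation in mice. Hepatocytes sense sterols in the endoplasmic reticulum membrane, where SCAP, INSIG proteins and the precursor of SREBP2 hold or release the factor that turns on the genes of cholesterol synthesis, many of which carry sterol regulatory elements and CCAAT boxes near their start sites.

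The libraries held 40883986 to 65516723 estimated counts. The label of 1 library went against its reads: Lpcat3 stood at 41.4 to 63.4 CPM (counts scaled to library size) in the 6 flox libraries, at 16.1 to 23.3 in 5 cre libraries and at 56.1 in the library labelled cre MCD 3. The full-length Lpcat3 transcript was listed at 0 FPKM in those 5 cre libraries and at 23.2 in the library labelled cre MCD 3. Medians of the cholesterol, fatty acid synthesis, immediate-early, recruited macrophage, mitochondrial and P450 lists are therefore also given without it. Values of single genes are from all 12 libraries unless stated, and DESeq2 was fitted to all 12 alone. Flox control 3 also stood apart from its group, and several list medians are also given without it and the library labelled cre MCD 3. When limma voom weighted each library, flox control 1 to 3 had weights of 0.526, 2.78 and 0.307. Hepatocyte markers were abundant in every library (Alb, albumin, at 34200 to 80300 CPM), and the pancreatic genes Prss2 and Cpa1 were at 0 in all 12. Although the mice were labelled male, Xist was read in every library and the 4 Y-linked genes checked had 0 counts. The row of 1 ribosomal RNA gene took 5.6% to 43% of a library. It was 43%, 19.2% and 7.34% in flox control 1 to 3, and flox control 1 also had the lowest TMM scaling factor, 0.684. Mitochondrially encoded RNA took 16.7% ± 4.69 (control) and 16.8% ± 2.28 (MCD) in flox livers, and 30.5% ± 6.51 (control) and 14.3% ± 4.27 (MCD) in cre livers (SD, n = 3).

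The cholesterol genes are shown first through the letters around their starts, because their list had the largest median interaction above 0 of the 34 lists. The 4 sequences run from 250 bases before to 50 after a RefSeq start site (GRCm38.p6), 5′ to 3′ on the gene's strand. They come from Idi1 (isopentenyl diphosphate isomerase, chr13:8885356-8885655, plus strand), Cyp51 (lanosterol demethylase, chr5:4104648-4104947, minus strand), Msmo1 (methylsterol monooxygenase, chr8:64733529-64733828, minus strand) and Hmgcs1 (cytosolic HMG-CoA synthase, chr13:119690101-119690400, plus strand). Capitals mark CCAAT, or ATTGG where it lies on the other strand, and TCACNCCAC, the core of a sterol regulatory element, and no 2 marked matches overlap.
Idi1: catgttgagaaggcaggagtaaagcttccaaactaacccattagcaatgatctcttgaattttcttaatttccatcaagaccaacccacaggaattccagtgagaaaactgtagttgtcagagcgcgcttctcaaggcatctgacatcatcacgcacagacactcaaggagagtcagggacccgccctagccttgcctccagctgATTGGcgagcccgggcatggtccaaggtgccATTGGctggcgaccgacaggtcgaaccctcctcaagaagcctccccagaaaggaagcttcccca
Cyp51: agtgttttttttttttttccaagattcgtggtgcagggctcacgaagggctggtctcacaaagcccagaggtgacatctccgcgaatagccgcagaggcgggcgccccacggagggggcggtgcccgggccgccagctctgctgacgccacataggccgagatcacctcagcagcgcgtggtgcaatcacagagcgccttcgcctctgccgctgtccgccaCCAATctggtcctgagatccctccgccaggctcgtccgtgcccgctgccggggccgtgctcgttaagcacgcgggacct
Msmo1: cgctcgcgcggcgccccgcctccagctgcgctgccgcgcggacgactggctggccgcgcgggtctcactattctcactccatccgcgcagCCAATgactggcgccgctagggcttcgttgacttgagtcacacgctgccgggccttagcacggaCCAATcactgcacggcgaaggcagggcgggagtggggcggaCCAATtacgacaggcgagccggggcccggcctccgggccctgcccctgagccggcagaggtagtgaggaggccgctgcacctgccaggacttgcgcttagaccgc
Hmgcs1: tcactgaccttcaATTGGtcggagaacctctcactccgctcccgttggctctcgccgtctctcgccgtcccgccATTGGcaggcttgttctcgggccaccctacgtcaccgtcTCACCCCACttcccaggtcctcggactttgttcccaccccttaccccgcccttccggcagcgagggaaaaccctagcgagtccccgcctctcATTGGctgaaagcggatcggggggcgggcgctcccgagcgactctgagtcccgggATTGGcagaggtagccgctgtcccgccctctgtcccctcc
Promoters were at hand for 17 of the 25 genes of the list, 20 promoters in all. CCAAT was found on either strand in 16 of the 20 promoters (80%), against 37.4% of 32841 promoters of the same length. TCACNCCAC was found in 1 of the 20 (5%), that of Hmgcs1, against 1.24% of all. These are matches of letters, and factor binding was not measured.

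Across the genome the diet responses of the genotypes were alike in direction where both passed the test. Of 16523 genes tested with edgeR, 871 changed with diet in flox livers (5.27%), of which 437 rose (2.64%) and 434 fell (2.63%), and 1118 in cre livers (6.77%), of which 616 rose (3.73%) and 502 fell (3.04%). The 386 genes called in both were 44.3% of the flox calls and 34.5% of the cre calls, and all 386 moved the same way, 195 upward and 191 downward. Across all tested genes the diet responses had a Pearson r of 0.47 and a Spearman rho of 0.46, which describes these genes and shares no library between the genotypes. Without the library labelled cre MCD 3 the cre calls numbered 545 (3.18%) and r was 0.40. The split of rises and falls depended on the scaling: on log2(FPKM + 1), 93.8% of the flox calls and 78.8% of the cre calls were rises, against 50.2% and 55.1% here.

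The interaction itself passed the test for 1 gene row, 0.00605% of those tested, and 1483 genes (8.98%) had an unadjusted p under 0.05, 670 of them (4.05%) with a higher and 813 (4.92%) with a lower response in cre livers. The median size of the interaction over all genes was 0.46 on the log2 scale, and its median standard error was 0.47. DESeq2 called 95 genes (0.575%), 58 higher (0.351%) and 37 lower (0.224%), limma voom called 0, and voom with a weight for each library called 49 (0.297%). Without the library labelled cre MCD 3, edgeR called 1 of 17151 genes (0.00583%), and 1318 (7.68%) had an unadjusted p under 0.05. Without flox control 3 as well it called 8 (0.0469%), among them Mt1, Elovl6, Gpc1 and the sterol hydroxylase Cyp8b1. With all 12 libraries the interaction of Cyp8b1 was -0.41 (edgeR adjusted p = 0.91). Cyp8b1 read 30.9, 29.6 and 144 CPM in flox control 1 to 3 and 45.4, 41 and 184 in cre MCD 1 to 3, so the libraries left out were the highest of their groups. All 95 DESeq2 genes kept their sign in each of the 12 edgeR fits that left out 1 library, as did 62% of all tested genes. The 95 were picked for a large interaction in the same libraries, which favours a kept sign and responses of opposite sign. Of the 95, 74 had diet responses of opposite sign in the 2 genotypes, 16 were smaller and 5 larger in cre livers.

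The 1 called row was Pakap (ENSMUSG00000038729, chromosome 4, 57717657 to 57896984), an A-kinase anchor gene annotated here on 3 rows, the second of which overlaps both others. It stood at 0.101 CPM ± 0.0435 in flox control livers and at 5.52 ± 0.384, 12.7 ± 0.944 and 8.09 ± 1.7 in cre control, flox MCD and cre MCD livers (SD, n = 3). In flox control livers 214, 272 and 265 estimated counts lay on another Pakap row (ENSMUSG00000089945) that was at 0 in the other 9 libraries. With the 3 rows summed the levels, in the same order of groups, were 6.29 ± 0.609, 5.52 ± 0.384, 12.7 ± 0.944 and 8.17 ± 1.76 CPM, the interaction was -0.45 ± 0.29 (SE) with an adjusted p of 0.65, and 0 genes passed, with 1488 of 16510 at an unadjusted p under 0.05. Glypican 1 (Gpc1) had the next smallest p (interaction -2.33 ± 0.36, adjusted p = 0.15) and a like pattern, with flox controls at 1.51, 0.985 and 1.32 CPM and every other library at 11.3 or more, and it overlaps Ankmy1, which was at 0 in the flox controls and at no more than 1.49 CPM in any library. Gpc1 rose on MCD in both genotypes, by 3.66 and 1.33.

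Among the 1603 genes called for diet in at least 1 genotype, the response was larger in cre livers for 810 (50.5%), smaller for 652 (40.7%) and opposite for 141 (8.8%). These shares moved with single libraries. Larger responses made up 34.8% of calls without the library labelled cre MCD 3, 28.9% without cre MCD 2, 64.3% without cre MCD 1, and 22.8% on log2(FPKM + 1). Genes called in flox livers alone numbered 485, of which 432 had a smaller and 53 an opposite estimate in cre livers, and of 732 called in cre livers alone 640 were larger, 88 opposite and 4 smaller. A call in 1 genotype alone does not show that the genotypes differ, and the call itself favours a larger estimate on the side called. In 55 genes (0.333% of those tested) all 3 MCD libraries lay above all 3 controls in flox and below them in cre livers, and in 43 (0.26%) the reverse held, against 850 (5.14%) above in both and 722 (4.37%) below in both. Full separation of 3 against 3 libraries has an exact permutation p no smaller than 0.1, so among this many genes some separate in both genotypes without any response.

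**Figure D1:**
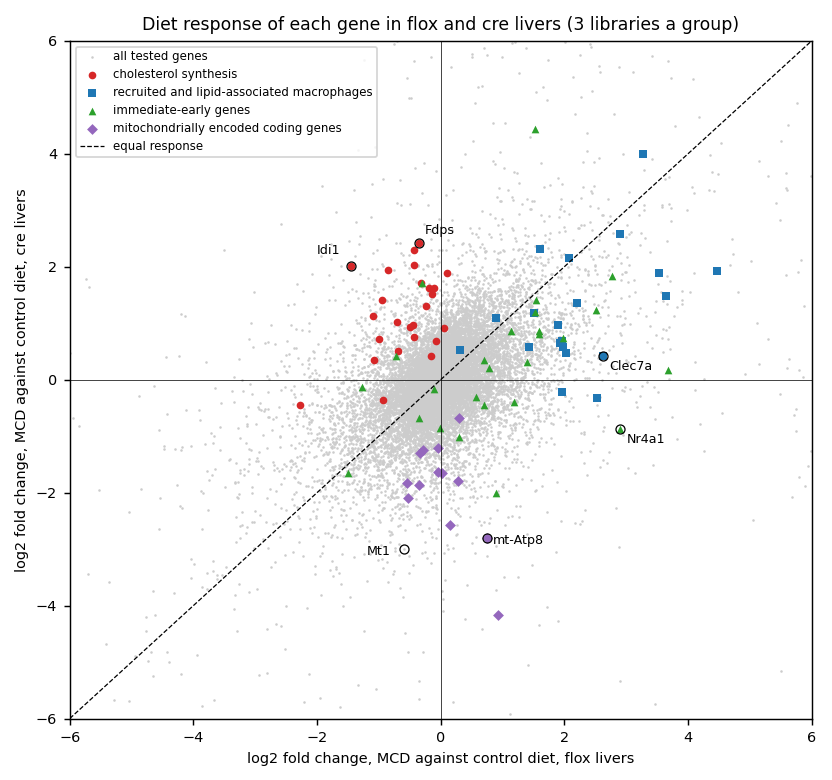
Each point is a gene, with its log2 fold change on MCD against control diet in flox livers (x axis) and in cre livers (y axis), from 3 libraries a group. Cholesterol synthesis genes lie above the dashed line of equal response in all 25 cases and mitochondrially encoded genes below it in all 13. Axes end at 6 on either side, which leaves out 293 tested genes, 3 of them in the coloured lists.

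Cholesterol synthesis genes rose on MCD in cre livers, 11 of 25 of them, while 0 rose in flox livers. Of all tested genes 3.73% rose in cre and 2.64% in flox livers. The summed level of the 25 genes was 1480 to 1960 CPM in flox control, 1040 to 1360 in flox MCD, 853 to 1780 in cre control and 2110 to 2990 in cre MCD libraries, so the cre MCD libraries lay above all others. In flox livers 3 of the 25 fell, and in cre livers 0 fell, against 2.63% and 3.04% of all tested genes. The interaction was positive in all 25, in each of the 12 fits without 1 library, and 22 of 25 had an unadjusted p under 0.05 in that direction, against 4.05% of all tested genes. None passed edgeR after adjustment over all genes, whose smallest adjusted p in the list was 0.21, while DESeq2 called 14 of 25, against 0.351% of all genes higher. The median interaction was 1.73, against -0.01 over all tested genes, and it was 1.80 without the library labelled cre MCD 3 and 1.64 without that library and flox control 3. The median of cre minus flox was -0.50 on the control diet and 1.12 on MCD, on the log2 scale. Sums of CPM are levels of RNA per library, and fewer cells of a type cannot be told apart from less RNA per cell.

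The pathway starts with acetyl-CoA and the mevalonate steps. Hmgcs1, which supplies HMG-CoA, had 356 CPM ± 119, 263 ± 67.9, 345 ± 186 and 584 ± 174 in flox control, flox MCD, cre control and cre MCD livers, an interaction of 1.19 with overlapping groups. The kinases Mvk and Pmvk and the decarboxylase Mvd, which turn mevalonate into isopentenyl diphosphate, had interactions of 1.79, 2.04 and 1.53.

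Idi1 (chromosome 13, 8885501 to 8892451), which makes dimethylallyl diphosphate, read 13.7, 6.76 and 6.25 CPM in flox control, 4.5, 2.67 and 2.61 in flox MCD, 1.46, 2.96 and 8.03 in cre control and 17.1, 22.5 and 10.9 in cre MCD livers. All flox MCD libraries lay below, and all cre MCD libraries above, their controls. Its interaction was 3.47 ± 0.73, the largest of the list, and ranged from 3.03 to 4.42 in fits without 1 library. Fdps (chromosome 3, 89093588 to 89101959), farnesyl diphosphate synthase, read 53.9, 45.5 and 54.9 CPM in flox control and 49.9, 43.9 and 26.6 in flox MCD livers, and it read 17.3, 19.3 and 43.5 in cre control and 125, 198 and 107 in cre MCD livers. It rose in cre livers by 2.42 (adjusted p = 0.0019) with a value of -0.36 in flox livers (adjusted p = 0.67), and its interaction of 2.78 ± 0.50 had an adjusted p of 0.21 by edgeR and 0.00011 by DESeq2.

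Fdft1 (squalene synthase), Sqle (squalene epoxidase) and Lss (lanosterol synthase) rose in cre livers by 1.62, 2.30 and 1.62, with flox values of -0.19, -0.44 and -0.11 that did not pass the test. Cyp51 and Msmo1, whose starts are printed above, had interactions of 2.46 and 2.79. Dhcr7 (chromosome 7, 143823145 to 143848410), the last reductase before cholesterol, fell in flox livers (21.1, 22.6 and 25.9 CPM on control diet against 14.1, 9.4 and 11.5 on MCD, log2 -0.995, adjusted p = 0.022). In cre livers it read 16.8, 22.3 and 22.4 against 30.3, 44.3 and 27, a value of 0.72 (adjusted p = 0.07) with MCD libraries above all controls. Tm7sf2, a sterol reductase, and Ebp, the sterol isomerase, were the other genes of the list that fell in flox livers, by 2.28 and 0.93. In cre livers their values were -0.45 and -0.37.

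Of the regulators, Srebf2, which encodes SREBP2, had an interaction of 0.76 ± 0.35 (unadjusted p = 0.048), and Insig1, which retains SCAP, 1.41 ± 0.42. Ebp and Hsd17b7, at 0.57 ± 0.31 and 0.86 ± 0.51, had unadjusted p-values of 0.092 and 0.11. Hepatocyte markers also leaned upward (21 of 24 positive, median interaction 0.55, 3 at an unadjusted p under 0.05, against 4.05% of all genes in that direction). Ribosomal protein genes did as well (25 of 26 positive, median 0.42, 0 at that p). Without flox control 3 and the library labelled cre MCD 3 those medians were 0.11 and 0.06, where that of cholesterol synthesis was 1.64.

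**Figure D2:**
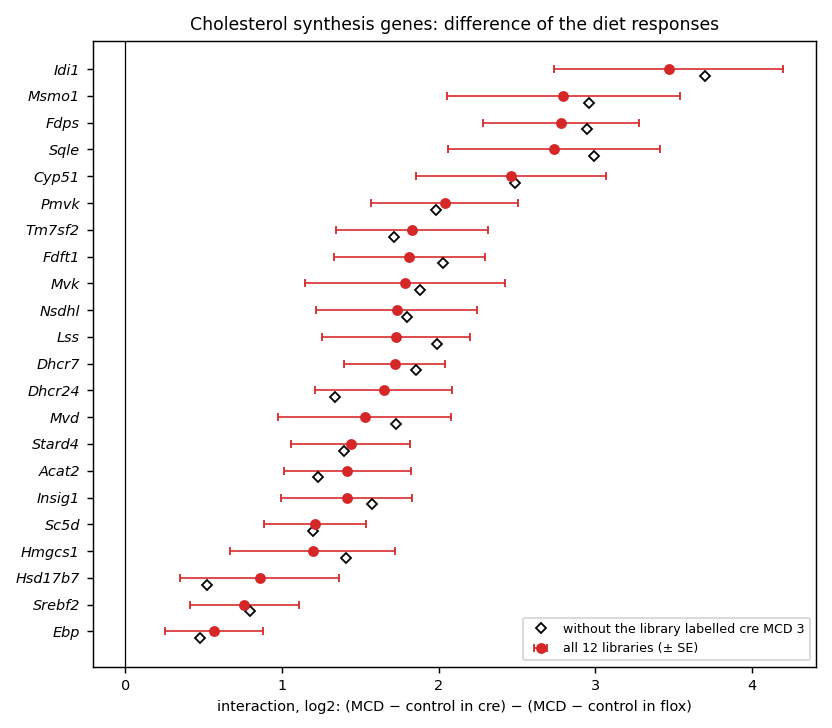
Interaction of 22 of the 25 cholesterol synthesis genes on the log2 scale (x axis), with the standard error from all 12 libraries and, as diamonds, the value without the library labelled cre MCD 3. Every value drawn is above 0, from 0.57 for Ebp to 3.47 for Idi1.

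Several genes of fatty acid synthesis fell on MCD in flox livers and had no call in cre livers. Of 28 genes, 6 fell and 2 rose in flox livers (2.63% and 2.64% of all tested genes). In cre livers 1 fell and 3 rose (3.04% and 3.73%). The summed level of the 28 was 4260 to 5400 CPM in flox control, 1870 to 2420 in flox MCD and 3060 to 4470 in cre control libraries. In cre MCD libraries 1 to 3 it was 1690, 1950 and 3860, so the sum was also lower on MCD in cre livers, least in the library labelled cre MCD 3. The interaction was positive in 24. Of these 8 had an unadjusted p under 0.05 (4.05% of all genes in that direction) and 3 were called by DESeq2 (0.351% of all genes). The median was 0.73, or 0.49 without the library labelled cre MCD 3 and 0.21 without that library and flox control 3. Elovl6, which elongates palmitate to stearate, read 104, 94.3 and 50.8 CPM in flox control and 24.9, 33.8 and 20.9 in flox MCD livers, without overlap. In cre livers its levels overlapped, at 47.4, 33.9 and 38.2 on control diet and 42.9, 56.5 and 34.3 on MCD. It fell in flox livers by 1.65 (adjusted p = 0.0046), its cre value was 0.16 (adjusted p = 0.78), and the interaction of 1.81 ± 0.40 was called by DESeq2 (adjusted p = 0.0084).

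Fasn (fatty acid synthase) fell in flox livers by 1.74, Acly (ATP citrate lyase) by 1.49 and Acss2 (acetyl-CoA synthetase) by 0.96, with cre values of 0.15, -0.31 and 0.44. Acss2 was tight in flox MCD livers, at 22.7, 21.4 and 22.6 CPM against 43.5, 38.1 and 47.8 on control diet, and it overlapped in cre livers. Scd1, the stearoyl-CoA desaturase, fell in both genotypes, by 4.65 in flox and 3.74 in cre livers, where MCD libraries 1 to 3 stood at 25.3, 29.4 and 391 CPM. Its interaction was 0.91 with all libraries and -1.53 without the last of these. Srebf1, which encodes the lipogenic factor SREBP1, fell in flox livers by 1.45 and had a cre value of -0.89 (adjusted p = 0.1), an interaction of 0.55 with an unadjusted p of 0.24. Lipin 1 (Lpin1), the phosphatidate phosphatase, read 200.3, 163 and 213 CPM in flox control and 58.9, 28.8 and 36.2 in flox MCD livers, against 86.3, 30.4 and 146 and then 107, 90.4 and 85 in cre livers. It fell in flox livers by 2.22, and its interaction was 2.32 ± 0.59.

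Immediate-early genes, which encode transcription factors made within minutes of a stimulus, and recruited macrophage markers showed the reverse, with rises on MCD in flox livers and smaller estimates in cre livers. Of 27 immediate-early genes 10 rose and 1 fell in flox livers (2.64% and 2.63% of all tested genes). In cre livers 4 rose and 1 fell (3.73% and 3.04%). The interaction was negative in 23, with 9 of 27 at an unadjusted p under 0.05 (4.92% of all genes in that direction) and 2 called lower by DESeq2 (0.224% of all genes), and the median was -0.78, or -0.87 without the library labelled cre MCD 3. Computed instead from the list's median level in each library, the interaction was -0.097 ± 0.54 (SE). By that measure it was 1.25 ± 0.40 for cholesterol synthesis and -1.96 ± 0.52 for recruited macrophage markers. Without cre control 1 the 9 were 4. Nr4a1 (chromosome 15, 101254269 to 101274795), an orphan nuclear receptor, read 1.51, 2.04 and 2.55 CPM in flox control and 20.7, 15.5 and 9.67 in flox MCD livers. In cre livers it read 2.83, 1.82 and 1.06 on control diet and 0.975, 0.348 and 1.78 on MCD, so that the flox MCD libraries stood above all 9 others. It rose in flox livers by 2.91 (adjusted p = 0.0045), its cre value was -0.87 (adjusted p = 0.31), and the interaction was -3.78 ± 0.71 (edgeR adjusted p = 0.21, DESeq2 adjusted p = 0.0003).

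Jun, a subunit of AP-1, read 18.4, 14.1 and 25.7 CPM in flox control, 56.1, 29.9 and 46.6 in flox MCD, 19.7, 17.8 and 16.3 in cre control and 12.9, 13.9 and 14 in cre MCD livers. All flox MCD libraries were above, and all cre MCD libraries below, their controls. It rose in flox livers by 1.19, and the interaction was -1.59 ± 0.35. Junb, Egr1, Klf6 and Ier3 rose in flox livers by 1.40, 1.97, 1.59 and 2.51, with cre values of 0.31, 0.73, 0.81 and 1.24 that did not pass the test. Other members answered alike in both genotypes: Myc rose by 1.53 and 1.40, Gadd45b by 1.53 and 1.20, and Dusp1 fell by 1.498 and 1.65. Maff, a small MAF factor, went the other way, with an interaction of 2.02 that DESeq2 called and a rise of 1.72 in cre livers.

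Of 22 marker genes for recruited, lipid-laden macrophages 15 rose in flox and 6 in cre livers on MCD, against 2.64% and 3.73% of all tested genes, and 0 fell in either. The interaction was negative in 17, 7 with an unadjusted p under 0.05 (4.92% of all genes in that direction), and 1 gene was higher at that p (4.05%). The median was -1.17, or -1.45 without the library labelled cre MCD 3. The 7 were 4 without cre control 1 and 4 under limma voom. Their summed level was 153 to 192 CPM in flox control, 139 to 194 in cre control, 400 to 880 in flox MCD and 369 to 660 in cre MCD libraries, so the MCD groups overlapped. Clec7a (dectin 1) read 3.97, 4.56 and 2.7 CPM in flox control, 24, 15.8 and 29 in flox MCD, 5.48, 3.7 and 5.05 in cre control and 3.76, 6.12 and 9.03 in cre MCD livers. It rose in flox livers by 2.62 (adjusted p = 0.00063), its cre value was 0.41 (adjusted p = 0.47), and the interaction of -2.21 ± 0.46 was called by DESeq2 (adjusted p = 0.0081).

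Gpnmb, a lipid-associated macrophage glycoprotein, was at 46.3, 10.9 and 32.7 CPM in flox MCD and at 0.812, 1.47 and 4 in cre MCD livers, with 0.255 or less in all 6 control libraries. Lgals3 (galectin 3) and Trem2 rose in flox livers by 3.64 and 3.53, with cre values of 1.49 and 1.88 that did not pass. Cd63 rose in both, by 3.28 and 3.99, and Lpl by 2.08 and 2.15. The marker Spp1 overlapped between the MCD groups, at 121, 43.3 and 81.1 CPM in flox and 68.1, 88.2 and 117 in cre livers. In the library labelled cre MCD 3 Gpnmb, Trem2 and Clec7a were the highest of the cre MCD group. Resident macrophage markers had a median interaction of -0.03 with 0 of 17 at an unadjusted p under 0.05, and their defining genes Clec4f, Timd4, Vsig4 and Cd5l were read in every library. Timd4 was lower on MCD in flox livers, at 7.53, 6.6 and 3.03 CPM against 1.4, 2.83 and 2.48. In cre livers it was lower as well, at 8.36, 5.67 and 6.74 against 3.62, 3.94 and 2.29. Vsig4 and Cd5l overlapped between the diets in both genotypes, and Clec4f in flox livers.

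Chemokine, neutrophil and extracellular matrix lists also had negative medians, while the interferon response (21 of 34 positive, median 0.20, 6 higher and 1 lower at an unadjusted p under 0.05) and acute phase genes (14 of 26 positive, median 0.10, 4 higher and 5 lower) did not. Without the library labelled cre MCD 3 those medians were 0.03 and 0.02, with 3 higher and 2 lower and 0 higher and 4 lower. Computed from the median level of the acute phase list in each library, its interaction was -0.47 ± 0.42 (SE). Chemokines and cytokines had 16 of 24 negative (median -0.71, 6 lower and 1 higher at an unadjusted p under 0.05, against 4.92% and 4.05% of all genes). The rises of Tgfb1 and Tnfrsf12a in flox livers, 1.26 and 1.98, had cre values of 0.32 and 0.85. Il18 fell in flox livers by 1.02 with a cre value of 0.10, and Il1a and Il1b fell in cre livers, by 1.48 and 1.91. Neutrophil genes, 6 of 11 tested, had 5 negative (median -1.83, 4 lower, or 2 without the library labelled cre MCD 3), with summed levels of 5.93 to 42.3 CPM in all groups, and 1 of the 4, Cxcr2, was at 0 in flox control livers. Extracellular matrix genes had 30 of 36 negative (median -0.57, 3 lower and 2 higher at that p, against 4.92% and 4.05% of all genes), and DESeq2 called 0. Their summed level was 1050 to 1300 CPM in flox control and 874 to 1120 in flox MCD libraries. It was 920 to 1060 in cre control and 872 to 1150 in cre MCD libraries, so the diets overlapped in both genotypes. In that list 7 rose in flox livers (2.64% of all genes), among them Col1a1 by 2.15, Col1a2 by 1.44, Col4a1 by 1.37 and Thbs2 by 1.47. In cre livers 0 rose (3.73% of all genes), and the values of those 4 were 0.63, 0.50, 0.76 and -0.45. Stellate cell markers (median -0.24, 2 of 22 lower) and lymphocyte markers (median -0.51, 2 of 23 lower) held few genes at that p.

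**Figure D3:**
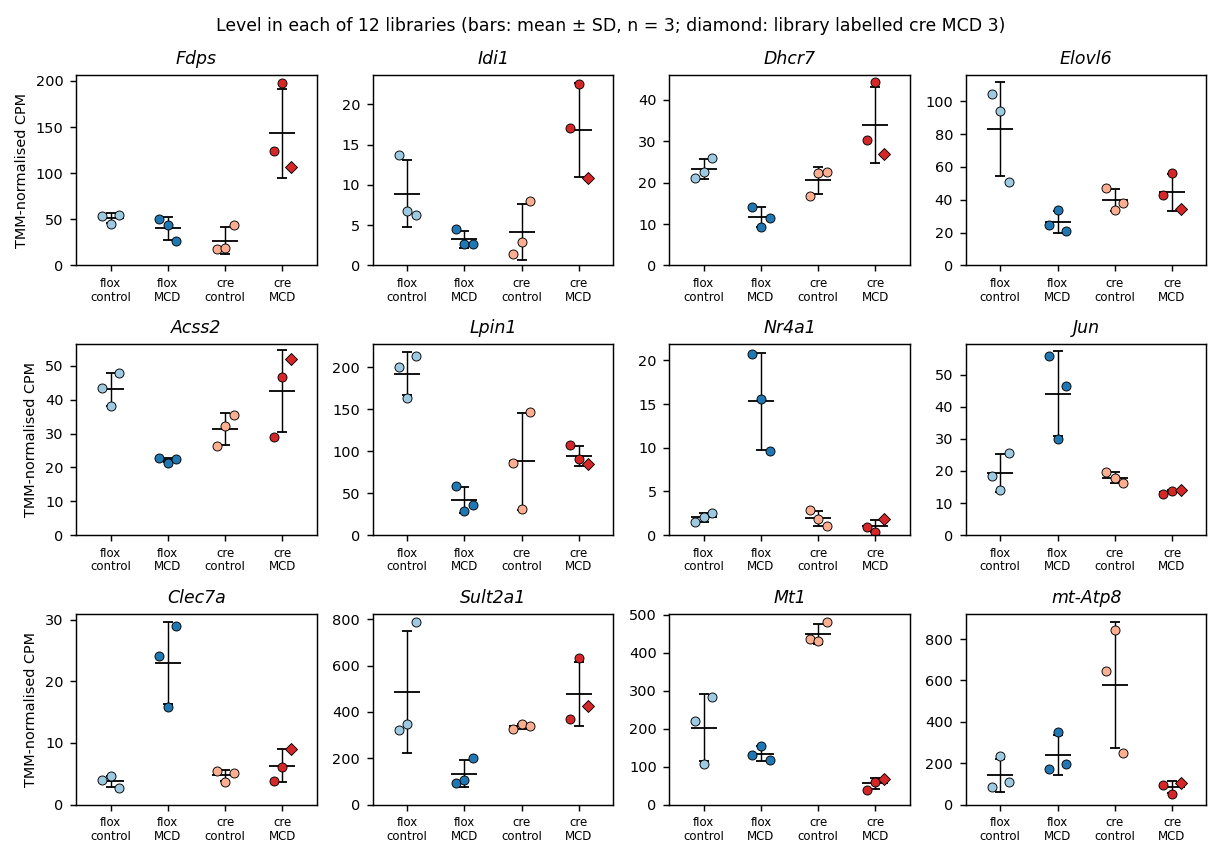
TMM-normalised CPM of 12 genes in each of the 12 libraries, by group (x axis), with the mean and SD of 3 libraries and a diamond for the library labelled cre MCD 3. The cre MCD libraries are the highest 3 for Fdps, and the flox MCD libraries are the highest 3 for Nr4a1, Jun and Clec7a.

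Mitochondrially encoded genes fell on MCD in cre livers from a high control level. Of 13 coding genes 11 fell in cre and 0 in flox livers, against 3.04% and 2.63% of all tested genes. All 13 interactions were negative, and 10 had an unadjusted p under 0.05 (4.92% of all genes in that direction). The median was -1.57, or -1.51 without the library labelled cre MCD 3. The cre control libraries summed to 275000, 366000 and 167000 CPM, and the flox control libraries to 91500, 159000 and 99300, so the groups differed before the diet, by a median of 1.32 on the log2 scale, and by -0.34 on MCD. The 10 were 6 without flox MCD 2 and 6 on log2(FPKM + 0.1). mt-Atp8, an ATP synthase subunit that overlaps mt-Atp6, read 644, 843 and 247 CPM in cre control and 93.5, 49.5 and 105 in cre MCD livers, a fall of 2.81 (adjusted p = 0.0059). In flox livers it read 83.4, 233 and 110.4 on control diet and 170.1, 349 and 198 on MCD, with overlap. Its interaction was -3.55 ± 0.68, called by DESeq2 (adjusted p = 0.00011).

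Metallothionein 1 (Mt1, chromosome 8, 94179082 to 94180327), a zinc and copper binding protein, fell in cre livers. It read 436, 432 and 481 CPM in cre control and 39.5, 60.5 and 68.5 in cre MCD livers, and 219, 106 and 283 in flox control and 129.7, 155 and 118 in flox MCD livers. It fell in cre livers (log2 -3.002, adjusted p = 0.00023), its flox value was -0.59 (adjusted p = 0.33), and the interaction was -2.41 ± 0.43 (edgeR adjusted p = 0.21, DESeq2 adjusted p = 0.00014). Slco1a1, a hepatocyte anion transporter, fell in both, by 3.72 in flox and 7.09 in cre livers, with cre control libraries at 6.71, 44 and 35.4 CPM and cre MCD libraries at 0.325, 0.11 and 0.205. Cre MCD levels this low carry few counts.

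Several hepatocyte enzymes fell on MCD in flox livers. Cytochromes P450 for xenobiotics had 22 of 24 positive interactions, with a median of 0.84. Of these 9 had an unadjusted p under 0.05 (4.05% of all genes in that direction) and 3 were called by DESeq2 (0.351% of all genes). There were 7 falls and 0 rises in flox livers (2.63% and 2.64% of all genes), and 2 falls and 4 rises in cre livers (3.04% and 3.73%). The median was 0.69 without the library labelled cre MCD 3 and 0.48 without that library and flox control 3, and the 9 were 6 without the library labelled cre MCD 3, 4 on log2(FPKM + 1) and 5 without flox MCD 2. Cyp2c70, which hydroxylates bile acids in mice, fell in flox livers by 2.04, from 201, 207 and 242 to 49.1, 29.5 and 79.9 CPM. In cre livers it was already low on control diet, at 95.2, 70.1 and 77.5, and read 41.4, 86.4 and 87.2 on MCD. Cyp2c37 fell in flox livers by 1.52 with a cre value of -0.29, and Cyp2c54 fell in both, by 6.77 and 5.40. The Cyp2c genes are near copies, and reads could be divided among them.

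The sulfotransferases, which add sulfate to steroids and bile acids, held large responses in both directions. Of 15 tested, 5 fell and 2 rose in flox livers (2.63% and 2.64% of all genes), and 5 fell and 3 rose in cre livers (3.04% and 3.73%). In this list 12 interactions were positive, with a median of 0.52. At an unadjusted p under 0.05, 4 were higher and 1 lower (4.05% and 4.92% of all genes), and DESeq2 called 3 higher (0.351% of all genes). The median was 0.15 without flox control 3 and 0.03 without both that library and the one labelled cre MCD 3. Computed from the list's median level in each library, the interaction was -0.75 ± 0.62 (SE), so its sign depended on the measure. Sult2a1, a bile acid and hydroxysteroid sulfotransferase, read 322, 347 and 789 CPM in flox control and 91.4, 108 and 202 in flox MCD livers, and 327, 349 and 339.8 in cre control and 370.3, 635 and 426 in cre MCD livers. It fell in flox livers by 1.86 (adjusted p = 0.011), its cre value was 0.49, and the interaction was 2.36 ± 0.52. Sult2a5 rose in cre livers by 3.37, from 6.75, 2.57 and 3.51 to 30.003, 60.6 and 42.2 CPM, with a flox value of 0.21. The Sult2a genes are near copies as well. Sult1e1, the estrogen sulfotransferase, rose in both genotypes with all 12 libraries, by 4.17 in flox and 4.65 in cre livers. Its interaction was 0.48 ± 1.39 (adjusted p = 0.94). In the library labelled cre MCD 3 its level was 33.6 CPM, against 2.71 and 7.99 in the other cre MCD libraries. Without that library the interaction was -0.99, and the cre value was 3.19 and no longer passed the test (edgeR adjusted p = 0.11). Lpcat3 itself had an interaction of 0.60 ± 0.50 (adjusted p = 0.73), and -0.11 without that library.

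Tlcd2, a membrane protein of the TLC domain family, read 28.5, 48.9 and 67.6 CPM in flox control and 9.96, 8.69 and 15.9 in flox MCD livers, a fall of 2.07, while in cre livers it read 8.94, 12.1 and 9.14 on control diet and 13.5, 11 and 18.5 on MCD. Its interaction was 2.58 ± 0.45, and it overlaps Mir22hg. Upp2, the liver uridine phosphorylase, fell in both genotypes, by 2.14 and 0.76, from 178 CPM ± 29.3 to 40.5 ± 5.95 in flox and from 82.7 ± 13.9 to 49 ± 9.29 in cre livers. Nat8f1 fell in flox livers by 1.60 with a cre value of -0.22. Acot2, a mitochondrial acyl-CoA thioesterase and PPARalpha target, rose in both, by 2.30 and 1.08, with 103, 151 and 112 CPM in flox MCD and 63.9, 38.8 and 45 in cre MCD livers. Cidec, a lipid droplet protein, rose by 6.15 and 4.45, from under 1 CPM in every control library to 22.6, 65.2 and 32.6 in flox and 10.02, 9.77 and 15.1 in cre MCD livers.

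Unfolded protein and ATF4 genes had 23 of 31 positive (median 0.56, 10 higher and 2 lower at an unadjusted p under 0.05, against 4.05% and 4.92% of all genes). In that list the chaperones Hspa5, Hyou1 and Hsp90b1 had interactions of 1.31, 1.29 and 0.88 with no diet call in either genotype, and Fgf21, a stress hormone of the liver, had -1.59, with a rise of 3.14 in flox livers and a cre value of 1.54. NRF2 and glutathione genes had 30 of 40 positive (median 0.39, 9 higher and 1 lower, or 6 and 2 without the library labelled cre MCD 3). They had 13 rises in flox and 17 in cre livers (2.64% and 3.73% of all genes), among them Gstm3 by 1.94 and 3.19. Methionine and one-carbon genes had 23 of 31 positive (median 0.39, 6 higher and 1 lower), which were 2 higher and 0 lower without the library labelled cre MCD 3, with a median of 0.05 without flox control 3 as well. Pemt, which makes phosphatidylcholine by methylation, had a rise of 1.32 in cre livers and a flox value of 0.47 (interaction 0.85 ± 0.36, adjusted p = 0.54), and Aldh1l1, a folate enzyme, fell in flox livers by 1.32 with a cre value of -0.12. Female-biased liver genes had 23 of 30 positive (median 0.50, 7 higher, a median of 0.21 without flox control 3 and the library labelled cre MCD 3). Male-biased genes had 13 of 24 (median 0.45, 6 higher and 3 lower), with a median of -0.02 without the library labelled cre MCD 3. Computed from the median level of the male-biased list in each library, the interaction was -0.50 ± 0.50 (SE).

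The medians of several metabolic lists differed without flox control 3 and the library labelled cre MCD 3. Fatty acid oxidation had a median of 0.17 with 1 higher and 1 lower of 33 at an unadjusted p under 0.05 (4.05% and 4.92% of all genes). Its median was -0.03 without the second of these libraries and -0.38 without both. PPARalpha targets had -0.19 (1 higher and 4 lower of 26), which was -0.47 and -0.72. Triglyceride synthesis and lipid droplets had 0.02 (1 and 2 of 26) and -0.56 without both libraries, bile acid synthesis and transport 0.31 (5 and 2 of 27) and 0.03, and glycolysis and gluconeogenesis 0.28 (4 and 2 of 28) and -0.08. Lipoprotein assembly and uptake had 0.21 (0 and 1 of 23) and -0.05, and phospholipid synthesis and remodelling 0.18 (1 and 1 of 30) and -0.11. The circadian clock had -0.06 (0 and 2 of 20). Proliferation genes had 0.13 (2 and 0 of 24), which was -0.23 with 3 genes that were at 0 in a group set to a floor of 3 counts. Endothelial markers had 0.15 (3 and 1 of 21), cholangiocyte markers 0.11 (0 and 1 of 16) and pancreas and red cell genes 0.58 (1 and 0 of 6). Whether cell composition takes part in any of these differences was not tested.

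**Figure D4:**
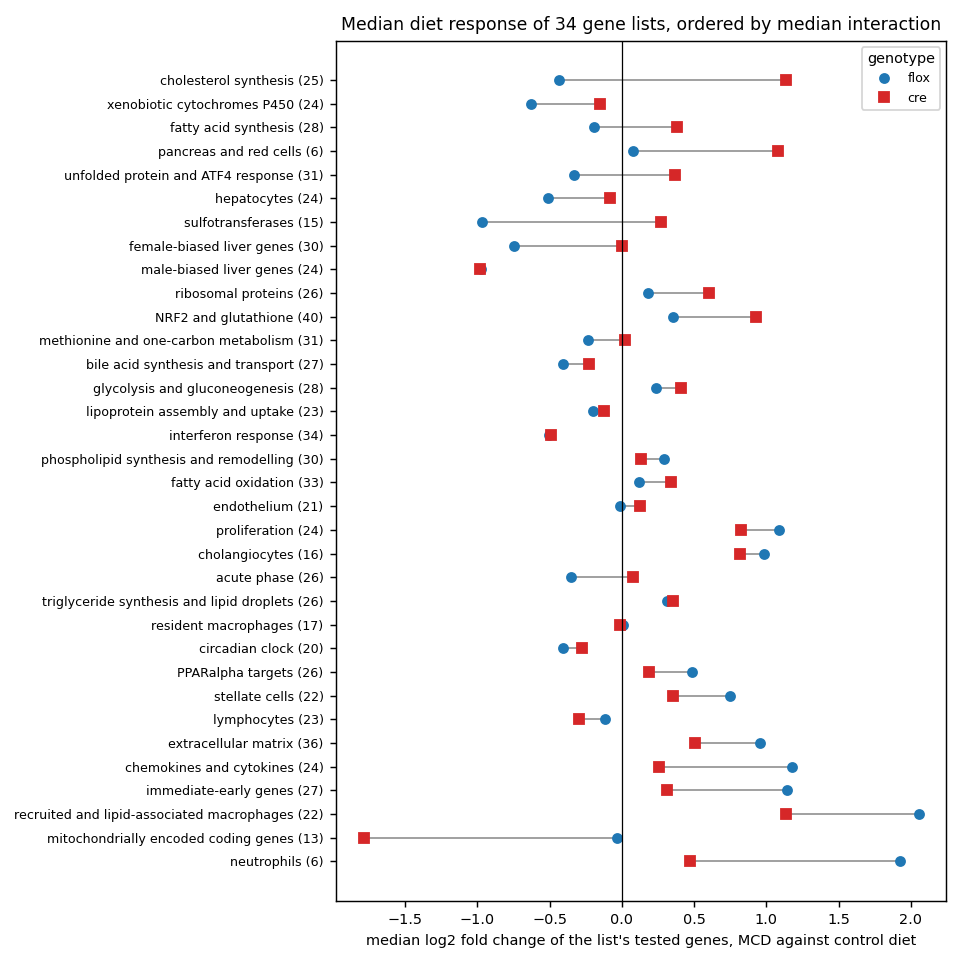
Median log2 fold change on MCD against control diet (x axis) of the tested genes of each of 34 lists, in flox livers (circles) and cre livers (squares), ordered by the median interaction, with the number of genes in brackets. The median of cholesterol synthesis is -0.44 in flox and 1.13 in cre livers, and that of recruited macrophage markers is 2.05 and 1.14.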

How the data were processed

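Liver RNA-seq of 12 mice was studied from the deposited processed tables, and no reads were mapped again. Per the submitters' processing notes cutadapt, FastQC, HISAT2, StringTie and edgeR were used with mm10, and no versions are given there. The labels name poly(A) RNA and a SMARTER kit. The authors' deposited gene table gives estimated counts for 55401 genes, in whole numbers. Their deposited gene and transcript tables in FPKM are scaled to length and library size. Expression summaries, correlation sheets and transcript counts were not used.

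Counts were tested in R 4.3.3 with edgeR 4.0.16 (filterByExpr, TMM, quasi-likelihood F test, 2-sided) in 1 fit of the 4 groups, which left 16523 genes, and p was adjusted over these by Benjamini-Hochberg with a threshold of 0.05. Levels are TMM-normalised CPM, and an SE is the log2 value divided by the square root of F. Alternatives used DESeq2 1.42.0, limma 3.58.1, other filters and scalings, each library left out and the replicate number as a block. Rows that share a symbol were summed as an alternative chosen after seeing the data. A single gene with 3 against 3 libraries allows no exact permutation p below 0.1, so p-values come from fits across all genes. The script was tested on simulated data. The 34 lists hold 811 genes, 788 of them tested, and a list is described by its counts and median beside those of all genes. A response is larger, smaller or opposite in cre by the estimates in the 2 genotypes. The named genes are Lpcat3 and Sult1e1, 12 genes in each direction with the smallest interaction p and a highest group mean of at least 5 CPM, 2 genes per list ranked by interaction p, 4 genes of each class of response by the same ranking, and in each direction the 4 genes called in both genotypes with the largest diet values. The text gives some of these. The other list members named were chosen after their values were seen. Members and lists were chosen with earlier results of these data known. Promoter sequences come from RefSeq (GRCm38.p6), for 17 of the 25 cholesterol genes. Values of 3 single genes of that list are not reported here, and its counts and medians cover all 25. Figures were drawn with matplotlib.

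Replicate numbers recur in the 4 groups, and 2 of 18 same-numbered pairs deviated together with a correlation over 0.1, so numbers were not taken to pair the samples. These were flox control 3 with cre MCD 3 (r = 0.345) and flox control 1 with cre MCD 1 (r = 0.283). Flox control 3 with cre MCD 1 had -0.345. Both groups enter the interaction with a plus sign, so shared deviations of such libraries add up in it.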

Additional observations from a re-analysis of the deposited data

Results flagged for a closer look

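The interaction of Pakap, -6.45 on the log2 scale, is the 1 difference between the genotypes' diet responses that passed the test. Its counts lie on different rows of 1 symbol in flox control and in all other libraries, and with the rows summed the interaction was -0.45 (adjusted p = 0.65). Groups of 3 are too small for a search for single outlying samples.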

How the results depend on the processing

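Groups of 3 limit every call, and genes at or near 0 counts in a group carry little depth. Of 815 medians of lists over the alternatives, 52 moved by more than 1 SD of the libraries and 55 had the opposite sign. The interaction had 8 calls with no filter, 95 by DESeq2, 0 by voom, 49 by voom with sample weights, 2 on log2(FPKM + 0.1), 8 without flox control 3 and cre MCD 3, 0 with rows of 1 symbol summed (a setting chosen after seeing the data), and 1 to 2 without single libraries. Diet calls in flox were 1653 by DESeq2, 3021 by voom with weights, 2547 and 2356 on log2(FPKM + 1) and (FPKM + 0.1), 1401 without both libraries and 425 to 1055 without single ones. Diet calls in cre were 2195 by DESeq2, 3200 by voom with weights and 319 to 1929 without single libraries. With the replicate block, cre diet calls were 2005 and the larger, smaller and opposite shares 59.1%, 29.9% and 11%, and 8 of 12 libraries correlated best with their own number, a hint from the data and not the design. Larger responses made up 47.5% of calls (voom with weights), 22.8% and 24.8% (FPKM + 1, + 0.1), 36.3% (without both) and 28.9% to 64.3% (without single libraries). Smaller responses made up 37.3% (CPM filter and voom with weights), 36.9% (DESeq2), 67.2% and 65.7% (FPKM), 53.9% (without both) and 25.4% to 64.9%. Opposite responses made up 10.4% (CPM filter), 13.0% (DESeq2), 15.2% (voom with weights) and 6.23% to 17.5%. Members at an unadjusted p under 0.05 numbered, in P450 genes, 4 on both FPKM scales and 5 to 13 without single libraries, in macrophage markers 4 by voom with and without weights and 4 to 10, in mitochondrial genes 6 on log2(FPKM + 0.1) and 6 to 12, in immediate-early genes 4 to 10, in cholesterol genes 19 to 24 and in fatty acid synthesis 7 to 12. On log2(FPKM + 0.1) the median interaction of all genes was lower by 0.22. Interactions of 8 named genes changed sign, and the cause was not tested. Without single libraries they ranged over -5.9995 to 1.34 (Asns), -0.11 to 0.91 (Lpcat3, negative without cre MCD 3), -4.77 to 0.20 (Mup8), -1.61 to 2.53 (Sult3a1), -2.01 to 2.87 (Mmp12), -0.067 to 1.33 (Vmn2r3), -1.37 to 0.98 (Sult1e1) and -0.94 to 0.84 (Cyp3a16). Asns was 0.17 by voom with weights and 0.68 and 0.32 on FPKM + 1 and + 0.1, Lpcat3 -0.15 by voom with weights and -0.27 without both libraries, Mup8 0.23 on FPKM + 1, Sult3a1 1.79 by voom with weights, and Cyp3a16 -0.72 and -0.76 by voom without and with weights. Sult1e1 was -0.86 with the replicate block, -1.66 and -0.96 on FPKM + 1 and + 0.1, and -2.83 without both.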
